A study of Mus musculus with 8 samples.

Results

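SN4741 cells were kept for 48 hours at 39°C, a temperature at which their immortalizing protein is reported to be less active. A minority of them in every library carried 4 or more captured transcripts of 5 genes of late S, G2 and M phase. These residual cycling cells were taken as the cells of the 39°C libraries with at least 4 UMIs (unique molecular identifiers, counts of captured transcript molecules) summed over 5 genes of late S, G2 and M phase: Ccnb1 (cyclin B1), Cdk1 (its kinase partner), Cenpf (a kinetochore protein), Tpx2 (a spindle assembly factor) and Birc5 (survivin, of the chromosomal passenger complex). Cells entered with at most 15% of UMIs from mitochondrial genes, 200 to 6000 detected genes and at least 5000 UMIs. Of 8133 such cells at 39°C, 612 were members, out of 10130 cells deposited for that temperature and 19125 in the series. They were compared, within each library, with the 4055 cells that had 0 UMIs of all 5 genes, called marker-negative cells here. The other 3466 cells, with 1 to 3 UMIs, entered neither group. The members were thus chosen on measured values, and the 5 genes are described but were left out of every test.

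The series holds 4 libraries of SN4741 cells at 37°C and 4 at 39°C, each labelled wild type (WT) and profiled with the Chromium 3′ V3 kit. SN4741 is reported to be a clonal mouse neural precursor line from embryonic substantia nigra, immortalized with a heat-sensitive SV40 T antigen driven by the tyrosine hydroxylase promoter, and the study found it to be polyploid with no uniform karyotype. The 37°C cultures grew in 10% fetal bovine serum, and the 39°C cultures in 0.5%, so temperature and serum cannot be told apart in any comparison between them. Neither the labels nor the methods say that the replicates were separate cultures, and p-values then measure only the spread between these libraries, which may be technical. Every comparison between cycling and marker-negative cells was made inside a library, where both groups had the same temperature and serum.

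In a dividing cell, E2F factors first raise the genes that load and fire replication origins, and MuvB complexes with B-Myb and FoxM1 later raise the genes that build the spindle and drive mitosis. In arrested cells the p53 target p21 (Cdkn1a) and the retinoblastoma family hold both groups of genes down, together with the DREAM complex. Large T antigen binds p53 and the retinoblastoma family, which is why a heat-sensitive form makes division depend on temperature. Arrest itself was not measured in these libraries, and a cell with 0 UMIs of the 5 genes can also be a cycling cell in G1 or one sampled too thinly.

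Cycling cells made up 7.86% ± 1.34 (SD, n = 4) of the kept cells in the 39°C libraries, or 92 of 949, 165 of 2384, 186 of 2315 and 169 of 2485 cells in replicates 1 to 4. These shares are 9.69%, 6.92%, 8.03% and 6.80% in replicates 1 to 4, with exact (Clopper-Pearson) 95% intervals of 7.89 to 11.8%, 5.93 to 8.01%, 6.96 to 9.22% and 5.84 to 7.86% that cover counting error only. The same rule took 58.2% ± 4.40 (SD, n = 4) of the cells at 37°C, and the libraries of both temperatures stayed far apart, with 52.8% the lowest value at 37°C. Since the rule set these shares, they are given without a test.

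**Figure D1:**
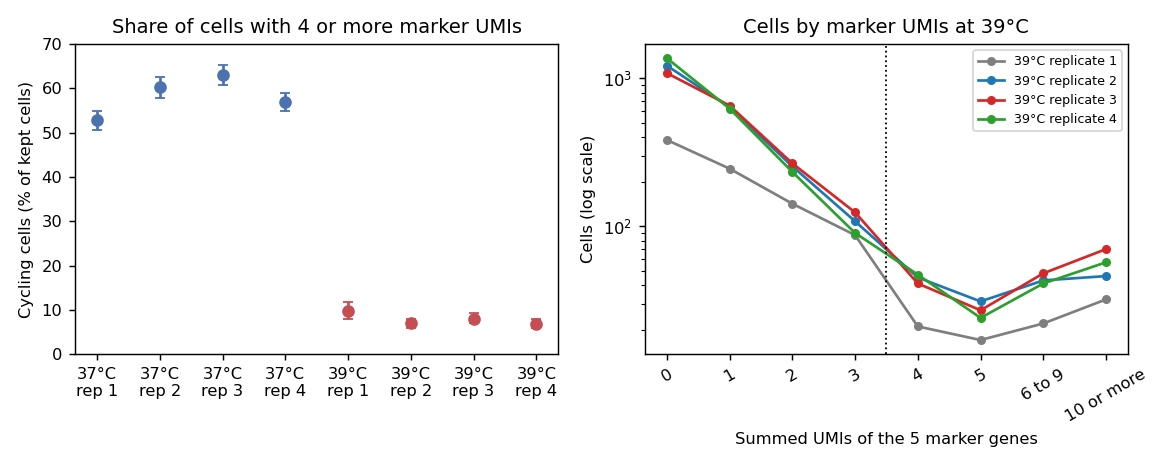
Left, the percentage of kept cells with 4 or more summed UMIs of the 5 marker genes in each library, with exact 95% intervals: 52.8 to 63.0% in the 37°C libraries and 6.80 to 9.69% in the 39°C libraries. Right, the number of cells (log scale) by summed marker UMIs in the 39°C libraries, where the dotted line marks the threshold and the counts fall from 0 to 4 UMIs and are higher again at 10 or more, a class that covers many values.

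Depth moved with membership. Each library's members summed to 1784494 to 2714538 UMIs and its marker-negative cells to 6246926 to 11660670. The median member had 19996, 11869, 13619 and 9453 UMIs in replicates 1 to 4, and the median marker-negative cell 15223, 8559, 9341 and 7774, a ratio of 1.34 ± 0.10 (SD, n = 4). With every cell thinned to 5000 UMIs, 267 cells still reached 4 marker UMIs, 3.17% ± 0.651 of the cells at 39°C (SD, n = 4) and 37.5% ± 2.89 at 37°C, and replicate 1, the most deeply sampled library, changed from the highest share of the 4 to the lowest (2.53%, against 2.68%, 3.71% and 3.74% in replicates 2 to 4). The order of the 39°C libraries therefore depended on depth, while the gap between temperatures remained. Thinning kept 26.1%, 38.8%, 46.2% and 55.0% of the members of replicates 1 to 4, so the same threshold took different shares of weakly marked cells by library. Mitochondrial shares were close, with medians of 8.13% ± 0.358 in members and 8.36% ± 0.297 in marker-negative cells (SD, n = 4 libraries), and so were the medians of a doublet score (0.0721 ± 0.009 and 0.0732 ± 0.014). Any pair of libraries had at most 5 cell barcodes in common.

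Among the genes of the rule, Tpx2 was found most often. Tpx2 was detected in 87.9 to 94.6% of the members of a library, Cdk1 in 70.7 to 79.9%, Birc5 in 57.6 to 75.7%, Cenpf in 40.2 to 57.0% and Ccnb1 in 43.4% ± 4.89 (mean ± SD of 4 libraries). All 5 were detected together in 16.3 to 24.7% of members, against 42.4% ± 0.289 (SD, n = 4) of the cells chosen by the same rule at 37°C. Only 1 of the 5 carried the cell over the threshold in 4.14 to 8.70% of members. The median member had 6, 6, 7 and 6 marker UMIs in replicates 1 to 4, and the median cycling cell at 37°C had 14 to 17, so the members at 39°C lay nearer to the threshold.

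The threshold divided a continuous range. Of the 612 members, 154 (25.2%) had exactly 4 marker UMIs, 99 had 5, 154 had 6 to 9 and 205 (33.5%) had 10 or more. Mki67 (Ki-67, a protein of proliferating nuclei, not used by the rule) was at 14.98 ± 8.81 CPM (counts per 1000000 UMIs, mean ± SD of 4 libraries) in the 409 cells with 3 marker UMIs, just outside the threshold, and at 29.9 ± 28.3 CPM in the cells with 4, just inside it. It was at 1.40 ± 0.359 CPM in cells with 0 UMIs and at 414 ± 45.1 CPM in cells with 10 or more. In between, the libraries differed widely. Mki67 was at 20.2, 127, 112 and 214 CPM in the cells with 6 to 9 marker UMIs of replicates 1 to 4. Members just above the threshold were thus close to the cells left out just below it and far from the strongest members. The summed level of 24 spindle and midbody genes passed through 286 ± 17.5, 456 ± 83.7, 562 ± 169, 1211 ± 257 and 2924 ± 203 CPM in cells with 0, 3, 4, 6 to 9 and 10 or more marker UMIs. The 17 replication licensing genes passed through 485 ± 15.2, 806 ± 96.0, 913 ± 244, 1557 ± 124 and 1444 ± 144 CPM in the same classes. The spindle genes were thus higher in the last class than in the one before it, where the licensing genes lay within their spread of each other. These levels are descriptions, since the classes are steps of the rule.

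**Figure D2:**
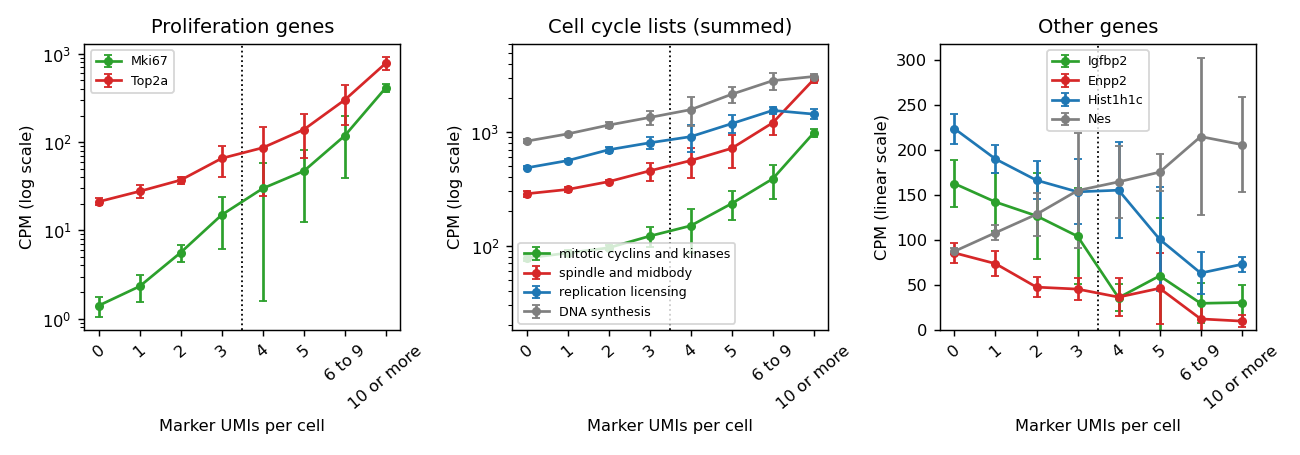
Level against marker UMIs per cell in the 39°C libraries, as mean ± SD over 4 libraries in CPM, on log scales (left and middle) and a linear scale (right); the dotted line marks the threshold. Mki67 goes from 1.40 CPM at 0 UMIs to 414 at 10 or more, the spindle list from 286 to 2924, and Igfbp2 from 162 to 30.5.

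To test the genes outside the rule, UMIs were summed over the members and over the marker-negative cells of each library, and the paired sums were compared with edgeR's quasi-likelihood test with the library as a block. At a Benjamini-Hochberg adjusted p under 0.05, cycling cells had more of 1827 and less of 1895 of the 13731 tested genes (13.3% and 13.8%), and the median log2 fold change of all genes was -0.03. DESeq2 gave 1136 and 779 calls on the same sums, all of them among those of edgeR, and cells thinned to 5000 UMIs gave 1171 and 1102. With the log2 limit of 1.5 and adjusted p limit of 0.01 that the study used, 285 were higher and 27 lower, so large differences lay mostly on the higher side. The fit took the spread of each gene from the tested genes as a whole (infinite prior degrees of freedom) and takes no account of a gene's own variation. Genes are therefore given below with their values in every library, the mean ± SD of the 4 library log2 ratios, or both. CPM values come from counts near the 3′ end and are compared only between groups for 1 gene. From here on CPM is scaled by edgeR's TMM factors, except in values given by marker class. Values of replicates 1 to 4 are listed in that order.

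The largest rises among genes above 50 CPM were in genes of proliferation and mitosis. Mki67 stood at 130.2, 157, 186 and 234 CPM in the cycling cells of replicates 1 to 4 and at 1.27, 1.93, 1.06 and 1.38 CPM in the marker-negative cells. No library of one group came near the other, and the log2 ratio was 6.97 ± 0.55. Top2a, the topoisomerase that untangles sister chromatids, stood at 265, 350.1, 360.1 and 494 CPM against 21.9, 22.1, 18.5 and 22.5, a log2 ratio of 4.08 ± 0.38. Cyclin A2 (Ccna2), which acts in S phase and G2, was at 41.7, 47.4, 49.8 and 61.7 CPM in cycling cells and at 0.953, 0.879, 1.15 and 1.56 in marker-negative cells, a log2 ratio of 5.49 ± 0.19. For each of these 3 genes the groups did not overlap, as for 24.3% of all genes tested. Since the members were chosen on G2 and M transcripts, higher levels of their partner genes describe the cells chosen and are not independent evidence that they divide.

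All members of the mitotic lists were called higher, against 13.3% of all genes. These were 17 of 17 mitotic cyclins and kinases (median log2 fold change 3.68), 24 of 24 spindle and midbody genes (3.36), 26 of 26 kinetochore and centromere genes (2.52), 19 of 19 genes of chromosome condensation and chromatin (1.62) and 9 of 9 genes of the anaphase promoting complex and mitotic exit (1.58). Cyclin B2 (Ccnb2) was at 34.7, 32.9, 34.5 and 41.7 CPM against 0.794, 0.615, 0.530 and 0.605. Kif11, the kinesin that pushes spindle poles apart, was at 52.8, 47.4, 65.8 and 60.6 CPM against 1.11, 1.49, 1.06 and 1.56, and Aspm, a spindle pole protein, at 35.7, 41.3, 41.4 and 43.3 against 1.11, 0.439, 1.15 and 0.864. Both groups stayed apart in every library for these genes, with log2 ratios of 5.83 ± 0.30, 5.45 ± 0.41 and 5.59 ± 0.70. The members did not move by one factor. Ube2c, the ubiquitin-conjugating enzyme of the anaphase promoting complex, had a log2 ratio of 3.34 ± 0.27, its activator Cdc20 one of 1.58 ± 0.30 and the separase inhibitor Pttg1 one of 0.56 ± 0.21. Pttg1 stood at 88.4, 76.9, 84.7 and 74.1 CPM in cycling cells and was already at 49.4, 57.0, 56.1 and 57.9 CPM in marker-negative cells. Cdc20 likewise had 17.96, 22.1, 18.5 and 18.9 CPM in marker-negative cells, against 60.8, 50.1, 66.1 and 54.7 in cycling cells.

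**Figure D3:**
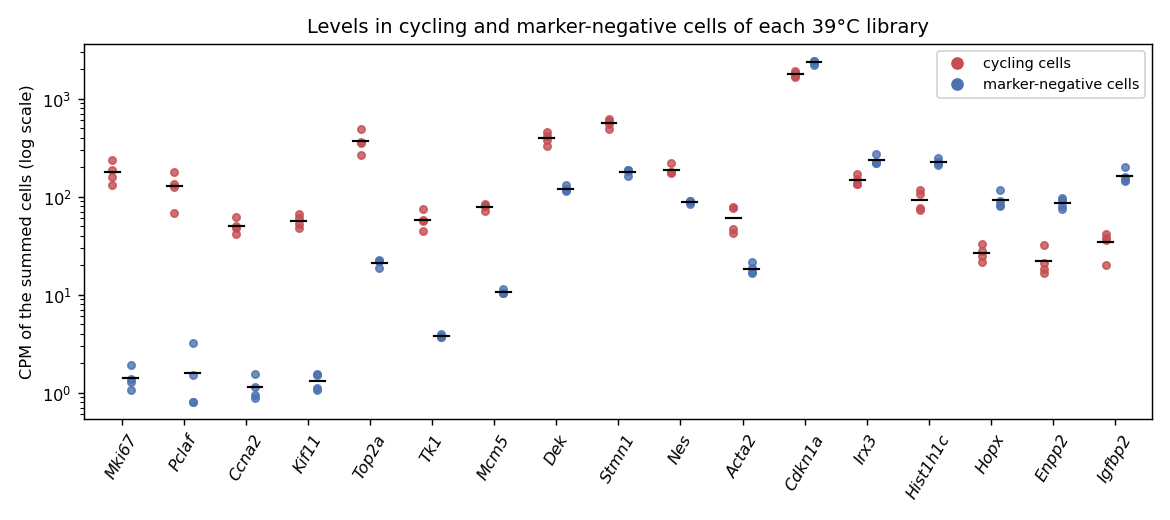
CPM (log scale) of 17 genes in the summed cycling cells (red) and marker-negative cells (blue) of the 4 libraries at 39°C; each point is 1 library and each black bar a mean. Mki67 lies at 130 to 234 CPM in cycling cells and at 1.06 to 1.93 in marker-negative cells, and Igfbp2 at 20.2 to 41.8 against 145 to 199, and the groups do not overlap for any of the genes drawn.

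Promoters of these mitotic genes shared short elements that the rule did not use. The cell cycle homology region (CHR) is the element through which MuvB complexes reach mitotic genes, CCAAT boxes (bound by NF-Y) often stand beside it, and E2F sites mark genes of replication. RefSeq sequences (GRCm38.p6) from 250 bases before to 50 bases after a start site were matched by gene symbol for 10246 of the 13731 tested genes and were searched on both strands for CHR (spelled TTTGAA, and also TTCGAA), for CCAAT, and for E2F (spelled TTTGGCGC, also TTTCCCGC and also TTTCGCGC). A CHR match was present in 16.3% of all these genes, in 19 of 22 spindle genes (86.4%), 11 of 15 condensation genes (73.3%), 8 of 12 mitotic cyclins and kinases (66.7%) and 12 of 22 kinetochore genes (54.5%), and also in 4 of 12 licensing genes (33.3%) and 4 of 29 DNA synthesis genes (13.8%). An E2F match was present in 4.02% of all genes, in 8 of 12 licensing genes (66.7%), 10 of 29 DNA synthesis genes (34.5%), 4 of 15 condensation genes (26.7%), 2 of 22 spindle genes (9.09%), 1 of 22 kinetochore genes and 0 of 12 mitotic cyclins and kinases. CCAAT was common everywhere, in 43.4% of all genes and 10 of 12 mitotic cyclins and kinases (83.3%). Matches are descriptions of letters, not shown binding sites. The windows below run from 100 bases before to 30 bases from the start site. They belong to 4 of the strongest mitotic rises with a CHR match in the window, so that match was a condition of printing. CHR and CCAAT matches are set in capitals:
Mki67 (chr7:135716350-135716479, minus strand): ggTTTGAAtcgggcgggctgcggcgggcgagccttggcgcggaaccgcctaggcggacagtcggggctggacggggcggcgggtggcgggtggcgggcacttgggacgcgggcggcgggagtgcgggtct
Ccnb2 (chr9:70421525-70421654, minus strand): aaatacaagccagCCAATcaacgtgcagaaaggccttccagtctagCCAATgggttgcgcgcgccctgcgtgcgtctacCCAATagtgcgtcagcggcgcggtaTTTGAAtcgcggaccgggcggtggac
Aspm (chr1:139454673-139454802, plus strand): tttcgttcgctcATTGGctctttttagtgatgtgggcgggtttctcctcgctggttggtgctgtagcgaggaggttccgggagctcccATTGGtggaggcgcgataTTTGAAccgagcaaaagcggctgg
Kif11 (chr19:37376282-37376411, plus strand): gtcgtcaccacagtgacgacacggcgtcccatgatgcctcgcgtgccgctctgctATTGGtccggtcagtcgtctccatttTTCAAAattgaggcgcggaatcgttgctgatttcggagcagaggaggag
The Kif11 capitals TTCAAA are the CHR letters on the other strand, and ATTGG is CCAAT on the other strand. The next pair of windows belongs to Pclaf, the PCNA-associated factor, and Clspn (claspin, a replication checkpoint mediator). They were likewise printed on condition of an E2F match, which is set in capitals and lies on the other strand in both:
Pclaf (chr9:65890223-65890352, plus strand): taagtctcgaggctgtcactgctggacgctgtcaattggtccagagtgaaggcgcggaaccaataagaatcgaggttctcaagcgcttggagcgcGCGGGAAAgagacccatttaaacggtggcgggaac
Clspn (chr4:126556880-126557009, plus strand): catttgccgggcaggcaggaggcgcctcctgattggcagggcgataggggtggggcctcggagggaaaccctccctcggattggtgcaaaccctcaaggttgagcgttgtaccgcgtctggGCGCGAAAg
Ccnb2 held 3 CCAAT matches and Aspm 2 in the printed window, and Mki67 none, and no match in capitals shared a base with another. The Ccnb2 and Aspm CHR matches began 4 and 6 bases from the start, and that of Mki67 98 bases before it.

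The members also carried the transcripts of the phases before mitosis, which the rule did not pick directly. All 17 replication licensing genes were called higher (median log2 fold change 1.60), as were 33 of 33 DNA synthesis genes (1.46) and 24 of 24 genes of recombination and checkpoints (2.34), again against 13.3% of all genes. Their sums rose from 487 ± 10.9 to 1258 ± 51.3 CPM for licensing and from 837 ± 28.2 to 2419 ± 210 CPM for DNA synthesis (mean ± SD, n = 4), with no overlap. Marker-negative cells kept a good part of some of these transcripts. The helicase subunit Mcm7 was at 149, 127, 125 and 125 CPM in them and at 254, 242, 248 and 241 in cycling cells, a log2 ratio of 0.91 ± 0.10. Mcm5, another subunit of the same ring, differed far more, at 10.3, 10.4, 10.3 and 11.3 CPM in marker-negative and 71.4, 83.5, 80.3 and 80.1 in cycling cells (log2 ratio 2.89 ± 0.11). The 6 subunits thus did not move by 1 ratio, although they form 1 complex: Mcm2, Mcm3, Mcm4 and Mcm6 had log2 ratios of 1.18 ± 0.08, 1.81 ± 0.03, 1.25 ± 0.11 and 1.09 ± 0.15. The loader Cdc6 had a log2 ratio of 4.24 ± 0.22, its partner Cdt1 one of 1.08 ± 0.41, and Gmnn (geminin, which blocks Cdt1 after S phase begins) one of 2.00 ± 0.21.

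Enzymes of nucleotide supply and the fork differed in the same way. Pclaf was at 67.3, 134, 126 and 179.6 CPM in cycling cells and at 0.794, 1.49, 0.795 and 3.20 in marker-negative cells, a log2 ratio of 6.50 ± 0.62, the largest after Mki67 among the genes named. Tk1, the thymidine kinase of the salvage pathway, was at 44.2, 56.7, 58.1 and 74.1 CPM against 3.65, 3.69, 3.80 and 3.98. Its de novo counterpart Tyms (thymidylate synthase) was at 93.5, 111, 106 and 119 against 38.3, 30.1, 33.0 and 34.0, and the sliding clamp Pcna at 42.2, 49.2, 54.1 and 55.2 against 13.3, 17.0, 18.5 and 18.6. In all 4 genes each library of cycling cells lay above every library of marker-negative cells, but the log2 ratio of Tk1 (3.92 ± 0.26) was far above those of Tyms (1.67 ± 0.27) and Pcna (1.58 ± 0.06). Of the recombination genes, Brca1 had a log2 ratio of 3.67 ± 0.44 and Brca2 one of 2.00 ± 0.14, while the mitosis-delaying kinase Wee1 had only 0.41 ± 0.10.

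S phase and mitotic transcripts were found together in some of the members. Whether this was more often than their separate rates would give was not tested. At 5000 UMIs per cell, at least 1 UMI of Pcna, Mcm5, Rrm2, Tyms or Slbp was present in 81.5% ± 4.54 of members (SD, n = 4) and in 49.2% ± 2.56 of marker-negative cells. At least 1 UMI of Cdc20, Plk1, Ccnb2, Aurka or Kif20a was present in 39.1% ± 3.27 of members and in 10.3% ± 0.980 of marker-negative cells. Both sets were found in 33.3% ± 2.14 of members, the S phase set alone in 48.2% ± 4.42 and neither in 12.7% ± 4.61, against 4.86% ± 0.907, 44.4% ± 3.23 and 45.4% ± 2.75 of marker-negative cells. Mki67 was detected in 40.5% ± 9.98 of members and in 0.812% ± 0.385 of marker-negative cells at this depth, and Top2a in 57.5% ± 13.6 and 9.30% ± 1.96. Mki67 and Top2a thus separated the groups more sharply than the S phase set, which many marker-negative cells also carried. The part of free RNA in the droplets was not tested. Without thinning, Mki67 was detected in 55.1% ± 10.0 of members.

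Of 25 regulators of the G1/S transition, 17 were called higher (13.3% of all genes) and 2 lower (13.8%), with a median log2 fold change of 0.79. The activators E2f1 and E2f3 and the late repressors E2f7 and E2f8 had log2 ratios of 1.09 ± 0.17, 0.73 ± 0.12, 1.92 ± 0.14 and 2.76 ± 0.58, while the repressor E2f4 had -0.05 ± 0.15. Mybl2 (B-Myb) and Foxm1, which raise mitotic genes, were low in level but far apart, at 9.05, 16.7, 13.1 and 14.1 CPM against 0.477, 0.439, 0.265 and 0.691 for Mybl2 and 14.6, 14.9, 17.4 and 24.9 against 2.38, 1.32, 2.03 and 2.33 for Foxm1. Cyclin E2 (Ccne2) was at 19.6, 20.2, 21.8 and 18.9 CPM against 4.77, 3.43, 3.18 and 3.72. The D cyclins, which respond to growth factors, did not rise. Ccnd1 was at 545, 611, 599 and 668 CPM in cycling and 629, 670.1, 624 and 689 in marker-negative cells, which overlap (log2 ratio -0.11 ± 0.07), Ccnd2 had a log2 ratio of -0.35 ± 0.25, also with overlap, and both were called lower. Ccnd3 (-0.04 ± 0.14) was not called. Their partner Cdk4 was called higher, with a log2 ratio of 0.68 ± 0.09, and Cdk6 (-0.05 ± 0.20) was not called. Rb1 and Rbl2 (p130) had log2 ratios of -0.09 ± 0.07 and -0.20 ± 0.20 without a call, and Rbl1 (p107) was called higher with 0.97 ± 0.19.

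Histone genes did not move together. Messages of replication-dependent histones mostly lack the poly(A) tail by which the kit captures RNA, so their counts cover only what was captured. Of 15 tested, 8 were called higher and 4 lower (13.3% and 13.8% of all genes), with a median log2 fold change of 0.63. The linker histone Hist1h1b was at 156, 139, 186 and 128 CPM in cycling cells against 15.6, 19.9, 22.7 and 16.3, a log2 ratio of 3.03 ± 0.22. Another linker histone, Hist1h1c, went the opposite way, at 116, 72.04, 107 and 75.8 CPM against 245, 226, 219 and 208, and so did Hist1h2bc, at 75.9, 82.6, 72.3 and 41.7 against 192, 229, 225 and 199 (log2 ratios -1.30 ± 0.30 and -1.68 ± 0.41). Both pairs of groups were without overlap. Many histone genes are close copies of one another. How reads that match several copies were handled is not given in the sources used here, so single members are uncertain.

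Microtubule genes rose beside the spindle genes. Of 12 tubulins and stathmins tested, 10 were called higher (13.3% of all genes) and 0 lower, with a median log2 fold change of 0.73. Stmn1, which destabilizes microtubules, was at 483, 548, 584 and 618 CPM against 164, 184, 188 and 183, a log2 ratio of 1.63 ± 0.09. Among the tubulins the largest ratio was that of Tubb3, an isotype used as a neuronal marker, at 16.6, 28.1, 26.9 and 22.7 CPM in cycling cells against 6.20, 7.21, 6.44 and 6.05 (1.84 ± 0.29), followed by Tuba1b (1.34 ± 0.27). Tubulins are close paralogs, and the handling of reads that match several copies is likewise not given, so single members are uncertain. Rises outside the cell cycle lists included Dtl, which targets Cdt1 for destruction in S phase, at 48.7, 61.9, 59.6 and 61.1 CPM against 6.04, 8.26, 5.83 and 7.61; citron kinase (Cit), of the midbody, at 43.2, 63.3, 75.2 and 93.1 against 14.0, 11.4, 10.9 and 11.1; and Atad5, which unloads PCNA, at 51.3, 47.0, 52.0 and 50.3 against 20.5, 15.99, 17.4 and 16.1. Slfn9, of the Schlafen family, was at 55.8, 41.7, 52.7 and 59.0 CPM against 4.29, 5.10, 4.24 and 4.06, a log2 ratio of 3.56 ± 0.36, and the chromatin protein Dek at 329, 374, 411 and 458 against 129.98, 118, 115 and 117 (1.70 ± 0.27). None of these genes overlapped between groups, against 24.3% of all genes tested that did not.

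Cell cycle inhibitors stayed abundant in the cycling cells. Cdkn1a (p21), which blocks cyclin-dependent kinases, was at 1646, 1927, 1838 and 1713 CPM in cycling cells and at 2207, 2409.7, 2314 and 2391 CPM in marker-negative cells. It was lower in all 4 libraries without overlap, but only by a log2 ratio of -0.39 ± 0.08. Cdkn2a, the gene of p16 and p19ARF, was at 855, 801, 979 and 861 CPM against 1027, 1011, 1094 and 1024 (-0.25 ± 0.07), and Cdkn2b (p15) at 124, 100.1, 106 and 82.8 against 166, 151, 159 and 150.2 (-0.62 ± 0.18). Of the 7 inhibitors tested, 4 were called lower (13.8% of all genes) and 1 higher (13.3%). The 1 higher was Cdkn2d (p19INK4d), a gene that oscillates with the cycle, at 28.1, 29.4, 28.3 and 44.4 CPM against 13.3, 14.2, 14.5 and 13.3 (1.21 ± 0.36). Cdkn1b (p27) had 63.8, 53.1, 66.1 and 59.5 CPM in cycling and 71.5, 72.4, 69.7 and 57.6 in marker-negative cells, which overlap, and was not called (edgeR, Benjamini-Hochberg adjusted p = 0.12).

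Targets of p53 followed the same small step down. Of 25 p53 pathway genes tested, 16 were called lower and 1 higher (median log2 fold change -0.21), against 13.8% of all genes called lower, and their sum was 7972 ± 132 CPM in cycling cells and 9767 ± 305 in marker-negative cells (mean ± SD, n = 4). Mdm2, the ubiquitin ligase that p53 induces against itself, was at 898, 1047, 952 and 892 CPM against 1237, 1212, 1177 and 1297 (-0.38 ± 0.15), and the Akt inhibitor Phlda3 at 932, 889, 906 and 916 against 1167, 1186, 1159.6 and 1167 (-0.36 ± 0.04). In both genes the groups did not overlap. The 1 gene called higher was Trp53 itself, at 189.9, 211, 218 and 205 CPM against 170.0, 174, 172 and 165 (0.27 ± 0.08). The proapoptotic genes were mixed: Bax (-0.16 ± 0.09) and Bbc3 (-0.42 ± 0.36) were called lower, with overlapping groups, and Pmaip1 (-0.07 ± 0.17) was not called. Fewer p53 targets were called with cells thinned to 5000 UMIs (9 lower, 1 higher).

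Several genes of quiescence were lower. Of 12 FoxO and quiescence genes tested, 7 were called lower (13.8% of all genes) and 1 higher (13.3%), and the median log2 fold change was -0.26. Pik3ip1, an inhibitor of PI3-kinase, was at 46.2, 42.2, 39.6 and 27.1 CPM against 70.6, 66.1, 75.8 and 66.5 (-0.87 ± 0.32), and Sesn3, a FoxO target that restrains mTORC1, at 57.8, 39.5, 41.8 and 53.6 against 84.5, 86.1, 81.7 and 79.4 (-0.80 ± 0.29). The antiproliferative gene Tob1 was at 81.9, 78.6, 87.6 and 88.7 CPM against 113, 106, 109.7 and 114 (-0.40 ± 0.06). All 3 were without overlap. Cited2 was the 1 gene called higher, at 240.2, 262, 264 and 302 CPM against 198, 189.6, 191 and 188 (0.47 ± 0.17).

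Among genes above 50 CPM, the largest falls included secreted and regulatory genes. Igfbp2, a secreted binder of insulin-like growth factors (chr1:72824503-72852474, GRCm38, plus strand), was at 36.2, 20.2, 41.8 and 37.9 CPM in cycling cells and at 199, 148, 159.6 and 145 CPM in marker-negative cells, a log2 ratio of -2.30 ± 0.46. Enpp2 (autotaxin, which makes lysophosphatidic acid, chr15:54838901-54952892, minus strand) was at 31.7, 21.1, 18.2 and 16.8 CPM against 97.2, 80.1, 91.9 and 74.5 (-2.01 ± 0.31), and Hopx, a homeodomain protein without DNA binding (chr5:77086988-77115121, minus strand), at 21.6, 24.6, 33.1 and 28.1 against 80.6, 90.7, 116 and 81.9 (-1.78 ± 0.17). Every library of cycling cells lay below every library of marker-negative cells for these 3 genes. Kdm5b, a demethylase of histone H3 lysine 4, was at 29.6, 29.4, 34.9 and 26.0 CPM against 73.4, 75.5, 72.5 and 68.7 (-1.28 ± 0.16), and the Wnt deacylase Notum at 30.2, 19.8, 29.1 and 23.3 against 66.9, 54.0, 65.7 and 54.2 (-1.25 ± 0.14). Ndrg1 and Tmem150a had log2 ratios of -1.13 ± 0.19 and -1.07 ± 0.09, also without overlap. Across marker classes, Enpp2 was at 85.6 ± 11.1 CPM in cells with 0 marker UMIs, 36.5 ± 20.8 in cells with 4 and 9.86 ± 6.90 in cells with 10 or more, and Igfbp2 at 162 ± 26.4, 35.8 ± 14.8 and 30.5 ± 19.9. Igfbp2 was at 29.6 ± 22.0 CPM in cells with 6 to 9, so the last class was not its lowest, and Enpp2 was at 12.3 ± 17.6 CPM there, within the spread of its last class.

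Neural progenitor genes did not move together. Nes (nestin), an intermediate filament of neural stem cells, was at 178, 174, 222 and 177 CPM in cycling cells and at 89.8, 88.8, 83.3 and 89.1 in marker-negative cells, a log2 ratio of 1.09 ± 0.22 with no overlap. Of the 15 genes of this list tested, however, 10 were called lower (13.8% of all genes) and 2 higher (13.3%), and the median log2 fold change was -0.38. Irx3, an Iroquois homeobox gene of neurogenesis, was at 168, 149.8, 134 and 135 CPM against 272, 222, 220.2 and 223 (-0.67 ± 0.07), Notch1 at 367, 365, 371 and 361 against 474, 492, 491 and 519 (-0.43 ± 0.06) and Sox4 at 531, 454, 467 and 472 against 663, 625, 617 and 616 (-0.39 ± 0.06). The Notch target Hes1 was at 251, 122, 106 and 125 CPM against 312, 186, 173 and 175, which overlap, although it was lower within every library (-0.53 ± 0.17). The Id genes, inhibitors of bHLH factors, had log2 ratios of -0.28 ± 0.16 (Id1), -0.38 ± 0.15 (Id3) and -0.83 ± 0.62 (Id4), all called lower, Id4 with overlapping groups. Sox2 (0.09 ± 0.10) and Hmga2 (0.12 ± 0.07) were not called, and the edgeR Benjamini-Hochberg adjusted p of Hmga2 was 0.085 and fell to 0.0066 with library totals in place of TMM factors. Id2 was called lower (-0.21 ± 0.21), with overlapping groups, and lost its call in several alternatives, one of them depth-matched cells (edgeR, Benjamini-Hochberg adjusted p = 0.65).

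Many neuronal and dopaminergic genes were too low to test. Of 20 neuronal genes listed, 10 could be tested, and 2 were called higher (against 13.3% of all genes), Tubb3 (above) and Map2 (43.7, 42.2, 44.3 and 50.3 CPM against 24.5, 25.4, 25.5 and 26.4, 0.82 ± 0.08), and 2 lower (against 13.8%), Celf5 (167, 138, 133 and 150.4 against 174, 189, 182 and 198, -0.34 ± 0.19) and Stmn2 (29.6, 54.5, 50.5 and 37.3 against 50.5, 55.6, 54.3 and 61.7, -0.41 ± 0.39). The groups lay close together for Celf5 and overlapped for Stmn2, and Stmn2 lost its call with thinned cells (edgeR, Benjamini-Hochberg adjusted p = 0.50). Cdh13, an atypical cadherin, was at 185, 192, 174 and 187 CPM against 251, 257, 248 and 248, without overlap (-0.45 ± 0.04). Of 12 dopaminergic genes listed, 4 had enough counts to test, of which Foxa2 was called higher at a low level (14.6, 17.1, 18.5 and 14.6 CPM against 13.8, 11.2, 12.1 and 11.9, 0.40 ± 0.26), a call lost in 9 alternatives, and Nr4a2, at 2.51, 4.39, 1.09 and 4.87 CPM against 4.77, 5.10, 3.80 and 5.79, was not called.

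Some contractile genes were higher in the cycling cells. Of 12 genes of contractility and the serum response factor tested, 7 were called higher (13.3% of all genes) and 1 lower (13.8%), with a median log2 fold change of 0.35. Acta2 (smooth muscle actin) was at 46.2, 77.3, 42.2 and 76.8 CPM against 16.5, 18.6, 17.1 and 21.3, a log2 ratio of 1.67 ± 0.34, and Ankrd1, a YAP target, at 138, 116, 170.1 and 147 against 77.2, 61.2, 51.6 and 49.2 (1.27 ± 0.45). Neither gene overlapped between groups. Tagln (transgelin) was also called, but its values of 5.03, 26.8, 22.2 and 16.2 CPM against 6.36, 6.68, 7.06 and 9.25 overlap, replicate 1 went the other way, and DESeq2 did not call it (adjusted p = 0.091). DESeq2 called 4 genes of this list higher and 0 lower. Of 16 matrix genes, 5 were called higher and 3 lower (median 0.20), against 13.3% and 13.8% of all genes: the basement membrane collagens Col4a1 (0.44 ± 0.13) and Col4a2 (0.42 ± 0.08) and Col1a2 (0.39 ± 0.14) were higher and Col1a1 (-0.25 ± 0.13) was lower.

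Among 11 secreted genes linked to senescence, 4 were called higher and 3 lower (13.3% and 13.8% of all genes). Il33, a nuclear cytokine, was at 5.03, 6.15, 7.63 and 1.62 CPM in cycling cells against 25.9, 27.1, 33.7 and 27.4, without overlap (-2.68 ± 0.94). Ccl2, a chemokine for monocytes, went the other way, at 53.3, 29.9, 65.4 and 63.3 CPM against 20.2, 19.5, 30.5 and 23.8 (1.13 ± 0.37), with overlapping groups but higher in all 4 libraries. The growth factor Csf1 was at 192, 206, 214 and 213 CPM against 141, 142, 144 and 154, without overlap (0.51 ± 0.06). Of 12 immediate early genes, 5 were called lower (13.8% of all genes) and 1 higher (13.3%), with a median of -0.14. Klf4 was at 280.4, 334, 310.0 and 305 CPM against 409, 405, 403 and 416 (-0.41 ± 0.11), Ier3 at 58.3, 61.9, 69.4 and 67.6 against 85.3, 97.2, 85.8 and 107 (-0.54 ± 0.16), and Klf6 was the 1 called higher (0.29 ± 0.15).

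Metabolic and housekeeping lists were read against 13.3% of all genes called higher and 13.8% lower. In the ATF4 list 6 of 17 genes were called higher and 3 lower (median 0.39), with 3 and 0 by DESeq2, led by serine and one-carbon enzymes: Phgdh was at 42.7, 73.4, 64.7 and 61.7 CPM against 18.6, 22.4, 20.7 and 23.9 (1.48 ± 0.24), Psat1 at 30.7, 35.1, 40.7 and 43.8 against 14.1, 12.04, 13.7 and 13.9 (1.47 ± 0.24) and Mthfd2 at 13.1, 16.7, 14.5 and 17.9 against 5.08, 6.06, 5.03 and 5.96 (1.48 ± 0.10), none with overlap. Cholesterol synthesis had 5 higher and 2 lower of 20 (median 0.05), glycolysis 5 and 1 of 14 (0.08), ribosome biogenesis 7 and 1 of 19 (0.14), chaperones 6 and 3 of 24 (0.01) and mitochondrially encoded genes 2 and 4 of 13 (-0.05). The chaperonin Hspd1 was at 284, 354, 329 and 312 CPM against 217, 233, 230.2 and 223 (0.50 ± 0.09), and the nucleolar protein Nop56 at 116, 135, 119 and 123 against 77.2, 75.8, 68.2 and 68.6 (0.77 ± 0.12). Rbm3, an RNA-binding protein induced by cold, was at 234, 173, 258 and 261 CPM against 166, 138, 176 and 150.5 (0.54 ± 0.19), higher within every library but with 1 overlapping value. Ribosomal protein genes had 39 lower and 7 higher calls of 77, at a median of only -0.09. That split was 25 lower and 18 higher when library totals were used as they were, and 7 and 1 without the library block.

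**Figure D4:**
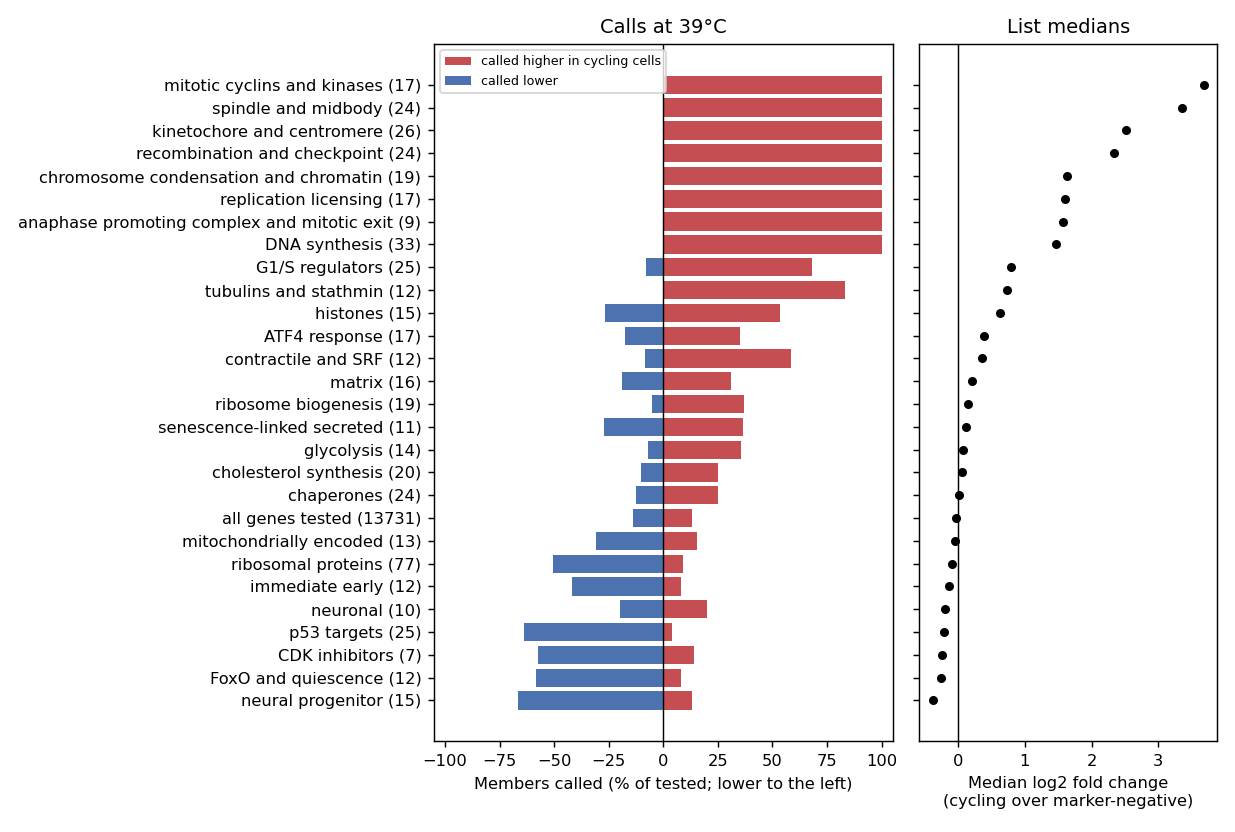
Left, the percentage of each list's tested genes (number in brackets) called higher (right, red) or lower (left, blue) in cycling cells at 39°C; right, the list's median log2 fold change. The 8 upper lists are called higher in full, against 13.3% of all genes tested, and 10 of 15 neural progenitor genes are called lower, against 13.8%.

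Whether cycling and marker-negative cells lay equally far apart at both temperatures was tested as an interaction over all 8 libraries. Of 14113 genes, 414 (2.93%) had a larger cycling over marker-negative log2 difference at 39°C and 1016 (7.20%) a smaller one, with a median of -0.08 over all genes. With library totals in place of TMM factors the split was 952 and 252 and the median of all genes 0.07, so the balance between directions depended on scaling. Replication genes had a wider gap at 39°C on the log2 scale: 15 of 17 licensing genes (median 1.07) and 28 of 33 DNA synthesis genes (0.68) had a larger difference, and 0 and 1 a smaller one. With marker-negative cells that also lacked Mki67, Top2a, Pcna and Rrm2, the counts with a larger difference were 8 of 17 (median 0.74) and 11 of 31 (0.38). The licensing sum was 1558 ± 50.9 CPM in cycling and 1067 ± 71.96 in marker-negative cells at 37°C, and 1258 ± 51.3 and 487 ± 10.9 at 39°C (mean ± SD, n = 4). The marker-negative cells of both temperatures were thus further apart in this sum than the cycling cells. Mcm5 stood at 113 ± 5.18 CPM in cycling and 61.5 ± 8.53 in marker-negative cells at 37°C, and at 78.8 ± 5.20 and 10.6 ± 0.490 at 39°C.

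Mitotic genes split in this test. The 5 genes with the largest change in each direction above 50 CPM were all called (edgeR, Benjamini-Hochberg adjusted p under 0.05). Ccnb2 came first among the positive differences (3.23) and stood at 109.6 ± 6.48 CPM in cycling and 18.2 ± 3.37 in marker-negative cells at 37°C, and at 36.0 ± 3.89 and 0.636 ± 0.112 at 39°C. Pclaf (2.83), Spc24 (2.25), Cdca3 (2.22) and Dtl (2.19) followed. In all 5 the mean of marker-negative cells was lower at 39°C than at 37°C. Cdc20 came first among the negative differences (-2.41) and stood at 122 ± 11.8 CPM in cycling and 7.45 ± 1.71 in marker-negative cells at 37°C, and at 57.9 ± 7.03 and 19.4 ± 1.88 at 39°C. Cdca8 (-1.81), Cenpe (-1.61), Cenpa (-1.47) and Spc25 (-1.44) followed, and in these 5 the mean of marker-negative cells was higher at 39°C than at 37°C while that of cycling cells was lower. Spindle genes as a list had 12 smaller and 1 larger of 24 (median -0.56), but 3 and 1 when both temperatures were held to 10 or more marker UMIs (median 0.003) and 2 and 1 with thinned cells, settings in which 15 and 14 of 17 licensing genes had a larger difference. Histones had 11 smaller and 0 larger of 15 (-1.10), and 7 and 0 in each of those settings. Hist1h1c stood at 58.2 ± 1.68 CPM in cycling and 61.9 ± 13.0 in marker-negative cells at 37°C, and at 92.8 ± 22.1 and 225 ± 15.3 at 39°C, so the groups differed at 39°C and lay within their spread of each other at 37°C (interaction -1.20). Enpp2, by contrast, stood at 3.30 ± 1.26 CPM in cycling and 27.2 ± 6.25 in marker-negative cells at 37°C, and at 21.9 ± 6.74 and 85.9 ± 10.5 at 39°C, lower in cycling cells at both temperatures.

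**Figure D5:**
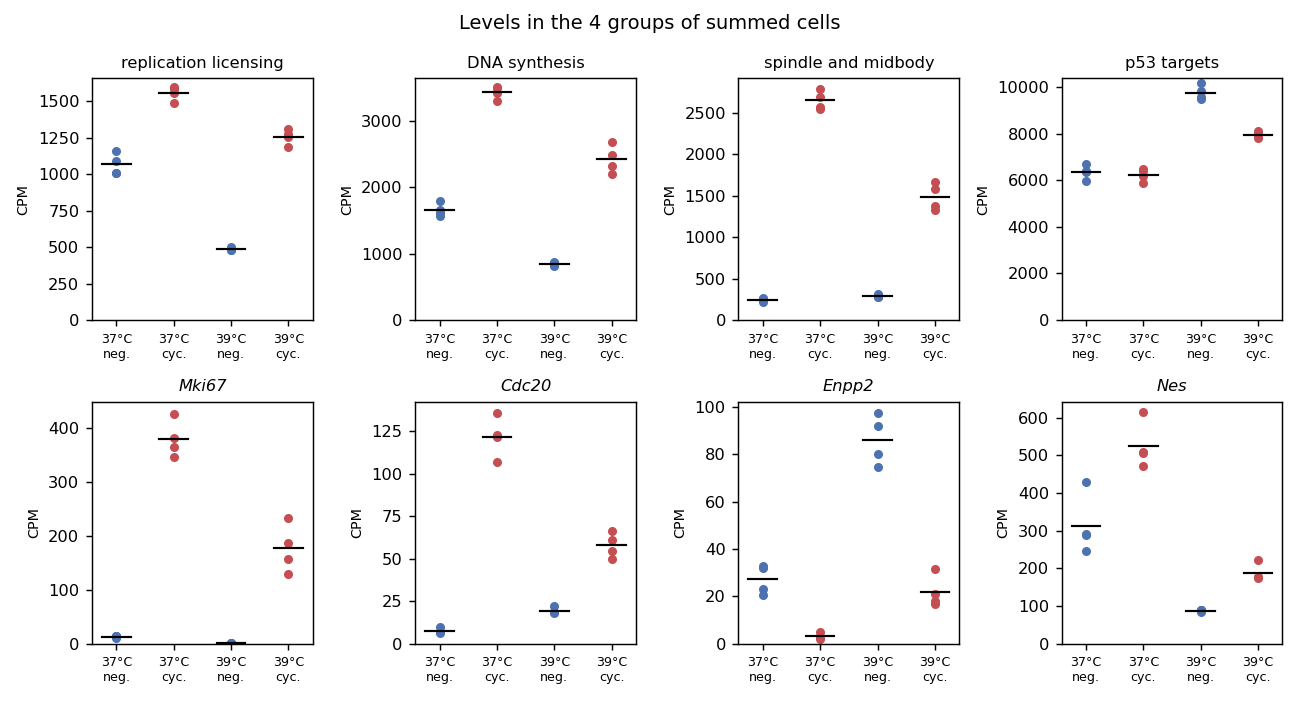
CPM of 4 lists (summed) and 4 genes in marker-negative (neg., blue) and cycling (cyc., red) cells at 37°C and 39°C; each point is 1 library and each bar a mean, on linear axes from 0. Licensing genes sum to 487 CPM in marker-negative cells at 39°C against 1067 at 37°C, and p53 targets to 7972 CPM in cycling cells at 39°C against 6244 at 37°C.

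Between the 4 and 4 sums of cycling cells, 2410 of 14418 genes (16.7%) were higher and 2963 (20.6%) lower at 39°C. With library totals in place of TMM factors these were 3127 and 2229. The p53 list was higher in the members than in cycling cells at 37°C for 17 of 25 genes and lower for 0 (median log2 fold change 0.42), with sums of 7972 ± 132 and 6244 ± 271 CPM. Cdkn1a stood at 1294 ± 91.6 CPM in cycling and 1409 ± 93.7 in marker-negative cells at 37°C, and at 1781 ± 125 and 2330.4 ± 92.0 at 39°C, so cycling cells at 39°C had more of it than either group at 37°C. Irx3 stood at 52.9 ± 4.58 CPM in cycling and 88.8 ± 9.39 in marker-negative cells at 37°C, and at 147 ± 15.8 and 234 ± 25.2 at 39°C. Celf5 stood at 52.1 ± 4.06 CPM in cycling and 62.6 ± 6.79 in marker-negative cells at 37°C, and at 147 ± 15.1 and 186 ± 10.4 at 39°C. In both genes each group at 39°C had a higher mean than either group at 37°C. Nes stood at 525 ± 61.9 CPM in cycling and 313 ± 79.5 in marker-negative cells at 37°C, and at 188 ± 22.9 and 87.7 ± 2.97 at 39°C, and in both groups it was lower at 39°C. Spindle genes were lower in the members for 21 of 24 genes (median -1.02) and licensing genes for 10 of 17 (-0.40), but the members at 39°C also had fewer marker UMIs. With cycling cells of both temperatures held to 10 or more marker UMIs, 17 of 24 spindle genes were lower (median -0.42) and 1 of 17 licensing genes (median -0.04).

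Markers of other cell types were scarce in the members. Of 20 markers of macrophages, endothelium, oligodendrocytes and astrocytes, 11 were at 0 UMIs in the members, Ptprc, Csf1r, Cdh5, Olig2, Gfap and Aqp4 among them. Summed levels per library were 30.3 to 64.8 CPM in members against 20.9 to 24.8 in marker-negative cells for the macrophage markers, 0 to 2.64 against 0.439 to 1.91 for the endothelial, 3.52 to 7.47 against 4.49 to 6.04 for the oligodendrocyte and 6.53 to 13.5 against 15.3 to 19.0 for the astrocyte markers. The macrophage sum rested on Cd68, a lysosomal gene that other cells also express, with 387 UMIs in the members. The astrocyte sum rested on Aldh1l1 (50 UMIs in members, 150 in marker-negative cells) and Slc1a3 (30 and 519). Slc1a3 was thus the larger part only in marker-negative cells. The macrophage sum was higher and the astrocyte sum lower in the members without overlap, while the other 2 sums overlapped, and the part of such signals in the results was not tested. Of the markers chosen for the neural precursor line, Vim (vimentin) was at 5373, 4658, 4777 and 4636 CPM in the members. Sox2 was at 81.9, 76.9, 81.0 and 81.2 CPM there. Such sums do not tell how many cells carried a gene. Of the 15 neural progenitor genes tested, 10 were called lower and 2 higher in the members (above).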

How the data were processed

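The deposited values are raw UMI counts per gene and cell barcode, made by the authors with Cell Ranger 3.0.1 against mm10 (submitters' processing notes) from Chromium Single Cell 3′ V3 libraries, 4 at 37°C and 4 at 39°C. Cells were kept with at most 15% mitochondrial UMIs, 200 to 6000 genes and at least 5000 UMIs. The limit on UMIs and the threshold of 4 marker UMIs belong to the rule that defined the members. The members, gene lists and tests were chosen with earlier results of these data known.

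UMI counts were summed per library over cycling cells and over marker-negative cells, the 5 marker genes were left out, and genes averaging 1 count or more over the sums were tested with edgeR 4.0.16 (TMM factors, quasi-likelihood test, two-sided) in R 4.3.3. The model held the library as a block for the comparison within 39°C and for the interaction over 8 libraries, and temperature alone for cycling cells at 39°C against 37°C. Benjamini-Hochberg adjustment covered all genes tested, and calls were made at 0.05. The estimated prior degrees of freedom were infinite in both blocked fits and 20.6 in the other. CPM of the summed groups, and the log2 ratios taken from it, used totals scaled by TMM factors computed over the sums of both temperatures. CPM by marker UMI class used the UMI totals without such factors. No cell was removed as a doublet, since Scrublet (scanpy 1.11.5, Python 3.11.15) gave only 2 cells in the series a score over 0.5. Doublets of like cells can score low, so these scores cannot show that the members were single cells. An alternative left out the highest-scoring cells at 0.8% per 1000 cells. Gene positions are GENCODE M21 on GRCm38.

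Named genes were the 10 largest rises and falls at 39°C among called genes of at least 50 CPM with 1 direction in all 4 libraries, the 10 largest rises outside the cell cycle lists, up to 4 called members of each of 33 lists, the 5 largest in each direction of the other comparisons, and genes the study names. Further members are named for their role and were chosen after their values were seen. Alternatives were RLE factors, library totals, other count filters, DESeq2 1.42.0, limma-voom (limma 3.58.1), edgeR with robust spread, other marker thresholds, other limits on genes and UMIs, marker-negative cells also lacking Mki67, Top2a, Pcna and Rrm2, depth-matched cells, thinned cells, doublet scores, the block and leaving out each library. The edgeR script was run on simulated counts with 1 spread for all genes, a setting that cannot probe a gene's own variation. Intervals of shares cover counting error only. The T antigen transcript was not analysed here, and a few named genes are not reported here.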

Additional observations from a re-analysis of the deposited data

Results flagged for a closer look

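Among 146 sets of 4 library values at 39°C, mostly log2 ratios of cycling over marker-negative cells, 7 held 1 library far from the other 3 by Dixon's test at 95%, about what chance gives at 1 in 20. Replicate 1 had the low value of Nusap1 (4.45), the low value of Nop56 (0.58) and the value of Celf5 nearest to 0 (-0.062). Replicate 4 had the high value of Cdkn2d (1.74), the low value of Il33 (-4.08) and a value of 0.49 for Hsph1. Replicate 3 had the high value of Nes (1.41).

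The difference between cycling and marker-negative cells differed between temperatures (edgeR interaction, Benjamini-Hochberg adjusted p under 0.05) for 10 genes named by size. It was larger at 39°C by 3.23 on the log2 scale for Ccnb2, 2.83 for Pclaf, 2.25 for Spc24, 2.22 for Cdca3 and 2.19 for Dtl. The interaction was -2.41 for Cdc20, -1.81 for Cdca8, -1.61 for Cenpe, -1.47 for Cenpa and -1.44 for Spc25.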

How the results depend on the processing

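Of 138 genes named by the stated rule and called between cycling and marker-negative cells at 39°C, 120 kept direction and call under every alternative other than the study's stricter limits, which 67 passed. Members chosen after their values were seen, such as Pttg1, Mcm7 and Ccnd1, are not part of this count. Gas1 changed sign with members of 10 or more marker UMIs (0.041, edgeR adjusted p = 0.85, against -0.57), a setting chosen after seeing the data, as were limma-voom and robust spread. Calls within 39°C (1827 higher, 1895 lower) were 285 and 27 with the study's limits, 1136 and 779 with DESeq2 and 1171 and 1102 with thinned cells, 2223 and 1413 with library totals, 1946 and 1697 with RLE factors, and 1437 to 1729 and 1399 to 1836 leaving out 1 library. Interaction calls (414 larger, 1016 smaller) were 40 and 13 with the study's limits, 952 and 252 with library totals, 265 and 208 with DESeq2, 197 and 352 with marker-negative cells that also lacked Mki67, Top2a, Pcna and Rrm2, and 254 and 291 with thinned cells. The smaller calls were 501 with RLE factors, 532 with filterByExpr and 420 with at most 5000 genes per cell, and the larger calls 656 with members of 6 or more UMIs and 683 with limma-voom. Leaving out 1 library gave 343 to 498 larger and 539 to 777 smaller, with 561, 591 and 541 smaller without 39°C replicates 2, 3 and 4 and 595 and 539 without 37°C replicates 3 and 4. With strict marker-negative cells Cdc6 lost its interaction call (edgeR adjusted p = 0.59). Cycling cells at 39°C against 37°C (2410 and 2963) gave 166 and 106 with the study's limits, 1053 and 1500 with 10 or more UMIs, 1445 and 1859 with thinned cells, and 1600 higher with 6 or more. Members were 13.5%, 4.62% and 2.65% of cells at thresholds of 3, 6 and 10 UMIs. Causes were not tested, except that thinning and higher thresholds leave fewer UMIs or cells.

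Without the library block, 1585 genes were higher and 1455 lower in cycling cells at 39°C. Replicate numbers shared by both temperatures showed no sign of pairing libraries. Same-numbered correlations over 11519 genes were -0.007, -0.054, -0.001 and 0.103, and 1 of 4 libraries correlated best with its own number. With so few libraries these values cannot exclude a pairing. With the replicate number as a block, the comparison of cycling cells between temperatures gave 2367 higher and 2951 lower calls. Depth-matched marker-negative cells were not run for the interaction, since 37°C holds fewer marker-negative than cycling cells. Genes at a few CPM rest on few UMIs.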

Other observations

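Further lists also differed between temperatures in how far cycling cells lay from marker-negative cells, against 2.93% of genes with a larger and 7.20% with a smaller difference at 39°C by edgeR. Of 24 recombination and checkpoint genes, 12 had a larger difference and 0 a smaller one (median 0.42), but 3 and 0 with marker-negative cells that also lacked Mki67, Top2a, Pcna and Rrm2. Tubulins and stathmins went the other way, with 1 larger and 10 smaller of 12 (median -0.48), and their sum was 5019 CPM in cycling and 1911 in marker-negative cells at 37°C and 4013 and 2354 at 39°C. Genes of the anaphase promoting complex and mitotic exit had 1 larger and 7 smaller of 9 (median -0.66). Ribosomal protein genes had 0 larger and 62 smaller of 77, but 3 and 14 with library totals, and p53 targets 0 and 12 of 25, but 0 and 4, so these counts depended on scaling.

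Acta2, a contractile gene, showed a larger log2 difference at 39°C (interaction 1.42), where both of its levels were lower. It stood at 231 ± 30.5 CPM in cycling and 190.0 ± 49.6 in marker-negative cells at 37°C, and at 60.6 ± 19.1 and 18.4 ± 2.15 at 39°C. Within marker classes its level was uneven, with libraries from 0 to 181 CPM in the 39°C cells with 6 to 9 marker UMIs. Phgdh, the first enzyme of serine synthesis, stood at 283 ± 40.4 CPM in cycling and 144 ± 24.3 in marker-negative cells at 37°C, and at 60.6 ± 12.9 and 21.4 ± 2.27 at 39°C. In both genes all 4 library sums of cycling cells at 39°C lay below those at 37°C. Cholesterol synthesis genes were lower in cycling cells at 39°C than at 37°C for 17 of 20 and higher for 0, against 20.6% and 16.7% of all genes. Between cycling and marker-negative cells at 39°C, 5 of the 20 were higher and 2 lower, against 13.3% and 13.8% of all genes.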
